A study of Danio rerio with 3 samples.

Results

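The cholesterol synthesis and Srebf2 target genes examined here are 10 genes, *hmgcra*, *hmgcs1*, *sqlea*, *ldlra*, *insig1*, *srebf2*, *cyp51*, *dhcr7*, *lss* and *fdps*, taken by symbol from the 31950 genes of the tables. Each symbol matched 1 gene. In a separate list of gene names all 10 identifiers were found, but only 7 carried the same symbol there. RNA was sequenced from whole zebrafish embryos of 3 conditions, HNE Z-REX, HDE Z-REX and non-treated, with 1 library per condition. All embryos had been injected at an early cleavage stage with mRNA for Halo-TEV-Keap1, a fusion of the HaloTag protein to the electrophile sensor Keap1, so the non-treated embryos carried the fusion too, and the protein came from injected mRNA rather than from a stable transgene. The labels write Keap1, Keap2 and Keap3 for the non-treated, HNE and HDE libraries, and the protein named elsewhere in the labels is Keap1 for all 3. In Z-REX a photocaged precursor binds the Halo domain and light releases the electrophile next to Keap1. By the labels, embryos were held with precursor in the dark for 30 h, exposed to light of 365 nm for 3 min and collected 1.5 h later, with a dose of 1 μM given for the precursor of HNE. The same protocol text stands for all 3 libraries, so the labels do not state whether non-treated embryos saw the light. In its qRT-PCR and neutrophil counts, the study lists non-treated and light alone as separate conditions. HNE (4-hydroxynonenal) and HDE (4-hydroxydodecenal) are hydroxy-enals of the same kind, and HDE has the longer carbon chain. The times above place collection in the second day of development. The study's supplement names the line as Tg(lyz:TagRFP), in which the promoter of the neutrophil gene *lyz* drives a red fluorescent protein, and the labels name no line. The number of embryos per library is not given in the sources used here.

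Animal cells make cholesterol from acetyl-CoA through mevalonate, farnesyl diphosphate, squalene and lanosterol. The transcription factor Srebf2 (also called SREBP2) is held in the endoplasmic reticulum by Scap and the Insig proteins while sterols are plentiful, and when sterols run low it is cleaved, enters the nucleus and switches on the genes of this pathway and the LDL receptor gene. In a zebrafish embryo, lipid from the yolk is exported as lipoprotein by the yolk syncytial layer and reaches tissues that also make cholesterol themselves.

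The counts of the 3 libraries summed to between 15084294 and 17996111, and they were scaled with edgeR's TMM factors, which lay between 0.983 and 1.03. For each gene, the split of its reads between 2 libraries was tested by a two-sided exact binomial test. P-values were adjusted by the Benjamini-Hochberg method over 18563 genes, those averaging 10 counts or more. A gene was called changed at an adjusted p under 0.05 and a difference of at least 1.5-fold. With 1 library per condition this test compares libraries, not conditions, no difference could be set against a spread between replicates, and the 95% Clopper-Pearson intervals given cover counting error only. All 10 genes passed the filter, *ldlra* exactly at its limit, and all had whole-number counts. Whole-embryo markers were present in every library, such as *ckma* of muscle (62356 to 76504 counts) and *elavl3* of neurons (4071 to 4674 counts), while the liver genes *ttr* and *fabp10a* had between 0 and 2 counts. In bulk RNA of this kind, fewer cells of a type and less RNA per cell cannot be told apart.

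The levels of the 10 genes spanned more than the differences between conditions. FPKM values, which are scaled by transcript length and so allow genes to be compared, put *fdps* highest in every library. It encodes farnesyl diphosphate synthase, the branch point between sterols and other isoprenoids, and stood at 64.7 FPKM in the HNE library, 53.1 in the HDE library and 69.6 in the non-treated library. *srebf2* followed with 26.6, 28.6 and 23.2 FPKM in the same order of libraries, and *insig1*, which encodes an anchor that holds the Scap-Srebf complex in the endoplasmic reticulum, with 16.8, 25.9 and 16.1 FPKM. The ranges of these 2 genes overlapped. *hmgcs1* (10.6 to 14.9 FPKM), for the cytosolic HMG-CoA synthase, and *cyp51* (8.21 to 10.9 FPKM), for the lanosterol demethylase, overlapped as well. *dhcr7*, for the reductase that completes cholesterol from its last precursor, had 6.83 to 7.67 FPKM, and *sqlea*, for squalene epoxidase, had 3.66 to 4.92 FPKM. The lower end was taken by *hmgcra*, 1 of 2 genes for HMG-CoA reductase, the rate-limiting enzyme of the mevalonate pathway, at 1.70 to 2.49 FPKM and by *lss*, for lanosterol synthase, at 1.63 to 2.21 FPKM, again with overlapping ranges. *ldlra*, a gene for the low density lipoprotein receptor, had 0.0481 FPKM after HNE, 0.163 after HDE and 0.167 without treatment, so its level rested on 4 to 14 reads. Between neighbours in this order other than the pairs named, the ranges over the 3 libraries did not overlap.

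**Figure D1:**
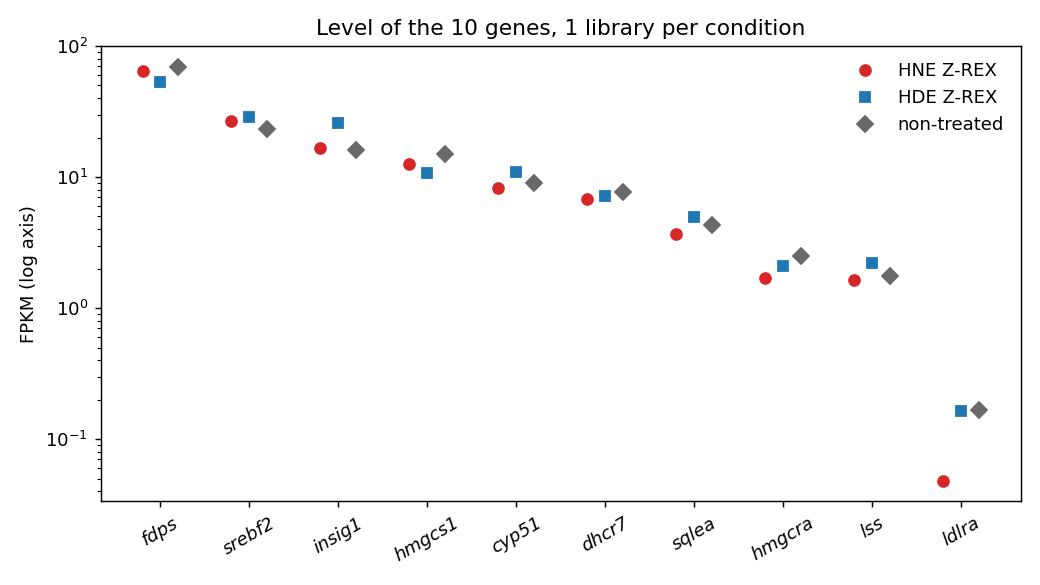
Level of each of the 10 genes in FPKM on a log axis, with 1 point per library (HNE Z-REX, HDE Z-REX and non-treated) and no replicate error. The genes run from *fdps*, at 53.1 to 69.6 FPKM, down to *ldlra*, at 0.0481 to 0.167 FPKM.

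In the HNE library against the non-treated library, 1 of the 10 genes was called lower and none higher. Of all genes tested, 3.36% were called, 1.62% lower and 1.75% higher. This gene was *hmgcra* (ENSDARG00000052734), with 105 counts after HNE, 112 after HDE and 161 in the non-treated library. The ratio of HNE to non-treated was 0.658, with a 95% interval of 0.510 to 0.847 and an adjusted p of 0.00944 by the exact binomial test. The value lies close to the limit of 1.5-fold, and by FPKM the ratio was 0.683, short of that limit. The adjusted p was 0.790 when edgeR's exact test was given a replicate spread (biological coefficient of variation, BCV) of 0.1. Over all alternatives tried it ran from 0.00757 to 1. *ldlra* (ENSDARG00000029476) had the lowest ratio, 0.288, but with 4 counts after HNE and 14 without treatment its interval ran from 0.0691 to 0.919 and its adjusted p was 0.140 (exact binomial test).

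Without the fold limit, 4 of the 10 genes passed an adjusted p of 0.05 in this comparison, against 14.7% of all genes tested. They were 1 higher gene, against 7.25% of all genes, and 3 lower genes, against 7.46%. Beside *hmgcra*, the 2 lower genes were *hmgcs1* (ENSDARG00000103025), with 542 counts after HNE against 714 in non-treated embryos and a ratio of 0.766 (0.684 to 0.858), and *fdps* (ENSDARG00000040890), with 1391 and 1565 counts and a ratio of 0.897 (0.834 to 0.965). The gene of the regulator itself, *srebf2* (ENSDARG00000063438), was higher, with 1733 counts after HNE against 1518 in non-treated embryos and a ratio of 1.15 (1.08 to 1.24). The remaining genes of the group had ratios between 0.857 and 1.01 with intervals that include 1. Their counts after HNE and without treatment were 169 and 199 for *sqlea*, 343 and 379 for *cyp51*, 232 and 265 for *dhcr7*, 70 and 74 for *lss*, and 452 and 451 for *insig1*. The median log2 ratio of the 10 genes was -0.17, with 8 below 0, and that of all genes tested was 0.0037.

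In the HDE library against the non-treated library, none of the 10 genes was called, against 4.26% of all genes tested (2.77% higher and 1.49% lower), and 0 were called by edgeR's exact test at a BCV of 0.1. At an adjusted p of 0.05 without the fold limit 5 passed, against 21.1% of all genes tested. They were split between 3 higher (9.97% of all genes) and 2 lower (11.1% of all genes). The largest difference was that of *insig1* (ENSDARG00000010658), with 590 counts after HDE and 451 without treatment, a ratio of 1.49 (1.32 to 1.69; adjusted p = 3.89e-09, exact binomial test). This falls just short of 1.5-fold, and the gene passed when libraries were scaled by total counts, with a log2 ratio of 0.64. By FPKM, which gives no test, the ratio was 1.61, beyond 1.5-fold. *srebf2* had 1643 and 1518 counts, a ratio of 1.23 (1.15 to 1.32), and *cyp51* (ENSDARG00000042641) had 404 and 379 counts, a ratio of 1.22 (1.05 to 1.40; adjusted p = 0.0345, exact binomial test). The 2 genes that were lower belong to the early part of the pathway. *fdps* had 962 counts after HDE and 1565 without treatment, a ratio of 0.701 (0.647 to 0.760; adjusted p = 1.13e-16, exact binomial test), and *hmgcs1* had 436 and 714 counts, a ratio of 0.697 (0.617 to 0.786; adjusted p = 4.63e-08, same test). *hmgcra* was on the same side with a ratio of 0.794, but its interval, 0.618 to 1.02, includes 1. *sqlea* (1.16), *lss* (1.30), *dhcr7* (0.969) and *ldlra* (0.978) also had intervals that include 1. The median log2 ratio was 0.090 for the 10 genes, with 5 on each side of 0, and 0.0073 for all genes tested.

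**Figure D2:**
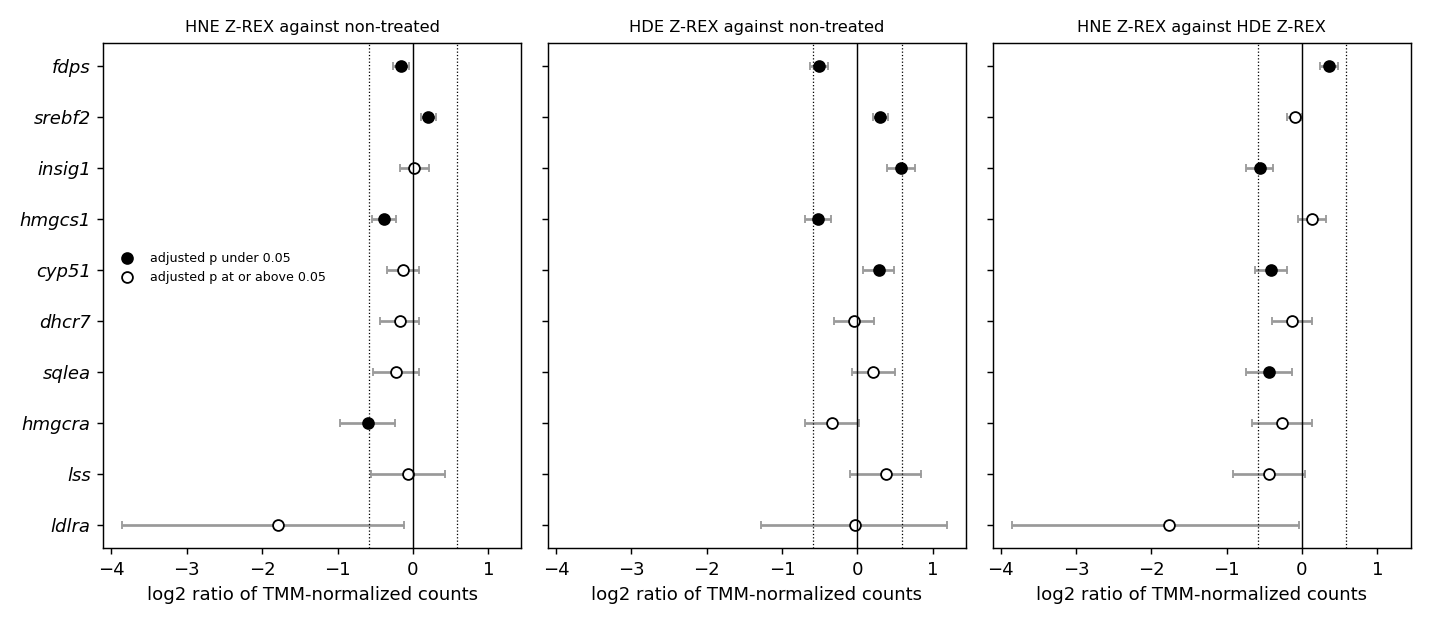
Log2 ratio of TMM-normalized counts for the 10 genes in the 3 comparisons, with exact 95% intervals for counting error; filled points have an adjusted p under 0.05 and dotted lines mark 1.5-fold. Only *hmgcra* in the HNE to non-treated comparison is filled and beyond a dotted line, *insig1* sits at the line after HDE, and *ldlra* has the widest intervals.

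The HNE and HDE libraries, 1 of each, were compared directly. The electrophiles differ in chain length, but the dose of the HDE precursor is not given in the sources used here. Effects of chain length, dose and library therefore cannot be told apart. None of the 10 genes was called, against 3.51% of all genes tested (1.21% higher and 2.30% lower), and 0 were called by edgeR at a BCV of 0.1. Without the fold limit 4 of 10 passed, against 16.7% of all genes tested, with 1 higher (9.22% of all genes) and 3 lower (7.44% of all genes). *insig1* had 452 counts after HNE and 590 after HDE, a ratio of 0.678 (0.598 to 0.768; adjusted p = 1.54e-08, exact binomial test). By FPKM, which gives no test, its ratio was 0.648, beyond 1.5-fold. *cyp51*, with 343 and 404 counts, had a ratio of 0.751 (0.649 to 0.870), and *sqlea* (ENSDARG00000079946), with 169 and 202 counts, a ratio of 0.740 (0.600 to 0.913). *fdps* was the exception, with 1391 counts after HNE and 962 after HDE and a ratio of 1.28 (1.18 to 1.39; adjusted p = 9.89e-08, exact binomial test). For *hmgcs1* the ratio was 1.1 (0.968 to 1.25), for *hmgcra* 0.830 (0.630 to 1.09), for *dhcr7* 0.912 (0.756 to 1.1) and for *lss* 0.737 (0.529 to 1.02), and these intervals leave both directions possible. For *srebf2* it was 0.933 (0.872 to 0.999; adjusted p = 0.173, exact binomial test). *ldlra* had the lowest ratio, 0.295 (0.0693 to 0.973; adjusted p = 0.163, exact binomial test), from 4 counts after HNE and 12 after HDE. The median of the 10 genes was -0.34 with 8 below 0, and that of all genes tested was -0.00077. Both Z-REX libraries were set against the same non-treated library, so their ratios to it are not independent of each other.

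The 10 genes were placed in the whole pathway, with 15 further genes of cholesterol synthesis taken from general knowledge of the enzymes. All 15 were tested. After HNE 1 was called higher and 1 lower, after HDE 1 was called higher and none lower, and between HNE and HDE 1 was called lower after HNE. The shares over all genes tested were 1.75% higher and 1.62% lower after HNE, 2.77% higher after HDE, and 2.30% lower in HNE against HDE. *msmo1* (ENSDARG00000055876), for the methylsterol oxidase that removes methyl groups after lanosterol, rose in both Z-REX libraries, with 76 counts after HNE, 85 after HDE and 46 in the non-treated library. Its ratios were 1.67 (1.14 to 2.46; adjusted p = 0.0450, exact binomial test) after HNE and 2.11 (1.46 to 3.09; adjusted p = 0.000387, same test) after HDE. Without the filter on low counts, the HNE call was lost. *hsd17b7*, for a reductase of the same stage, fell to 193 counts after HNE, against 317 in the non-treated library, with 233 after HDE. Its ratio was 0.615 (0.511 to 0.737) after HNE and 0.839 (0.705 to 0.996; adjusted p = 0.148, exact binomial test) after HDE. By FPKM the HNE ratio of *hsd17b7* was 0.694, short of 1.5-fold. *fdft1*, for squalene synthase, had 90 counts after HNE, 133 after HDE and 116 without treatment, and it was called between HNE and HDE with a ratio of 0.599 (0.453 to 0.788). By FPKM its HNE to HDE ratio was 0.66675, just short of 1.5-fold. All 3 genes lost their calls at a BCV of 0.1. The highest mean counts of the 15, not corrected for length, were those of *lbr* and *idi1*. *lbr*, whose protein is also a receptor for lamin B, had 3371 counts after HNE, 3098 after HDE and 3398 without treatment. *idi1*, for isopentenyl diphosphate isomerase, had 1380, 1258 and 1355 counts.

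Read along the pathway, the 22 enzyme genes fall into 3 stages, a grouping made after their values were seen and given without a test. For the 9 genes from *acat2* to *fdps*, the median log2 ratio was -0.16 after HNE and -0.14 after HDE, with 7 and 6 genes below 0. *acat2*, for the thiolase that starts the pathway, was lower in both, with 821 counts after HNE, 756 after HDE and 1073 without treatment and ratios of 0.773 and 0.804. For the 3 genes of squalene and lanosterol synthesis, *fdft1*, *sqlea* and *lss*, the medians were -0.22 after HNE and 0.37 after HDE, with 0 of 3 and 3 of 3 genes above 0. None of these 3 was called against the non-treated library, and none had an adjusted p under 0.05 against it (exact binomial test). Of their intervals against it, only that of *fdft1* after HDE, 1.01 to 1.69, leaves out 1. For the 10 genes from lanosterol to cholesterol the medians were -0.22 and -0.040, and 9 of the 10 were lower after HNE than after HDE. Summed over all 22 genes, FPKM came to 277 in the HNE library, 286 in the HDE library and 301 in the non-treated library. For *tm7sf2*, a sterol reductase gene, the 2 tables disagree in direction, since its counts were 65, 70 and 93 in that order of libraries while its FPKM values were 4.18, 4.41 and 3.82. For *ebp* and *nsdhl* the HDE to non-treated ratios disagree too, at 0.977 and 1.11 by counts and 1.13 and 0.985 by FPKM.

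**Figure D3:**
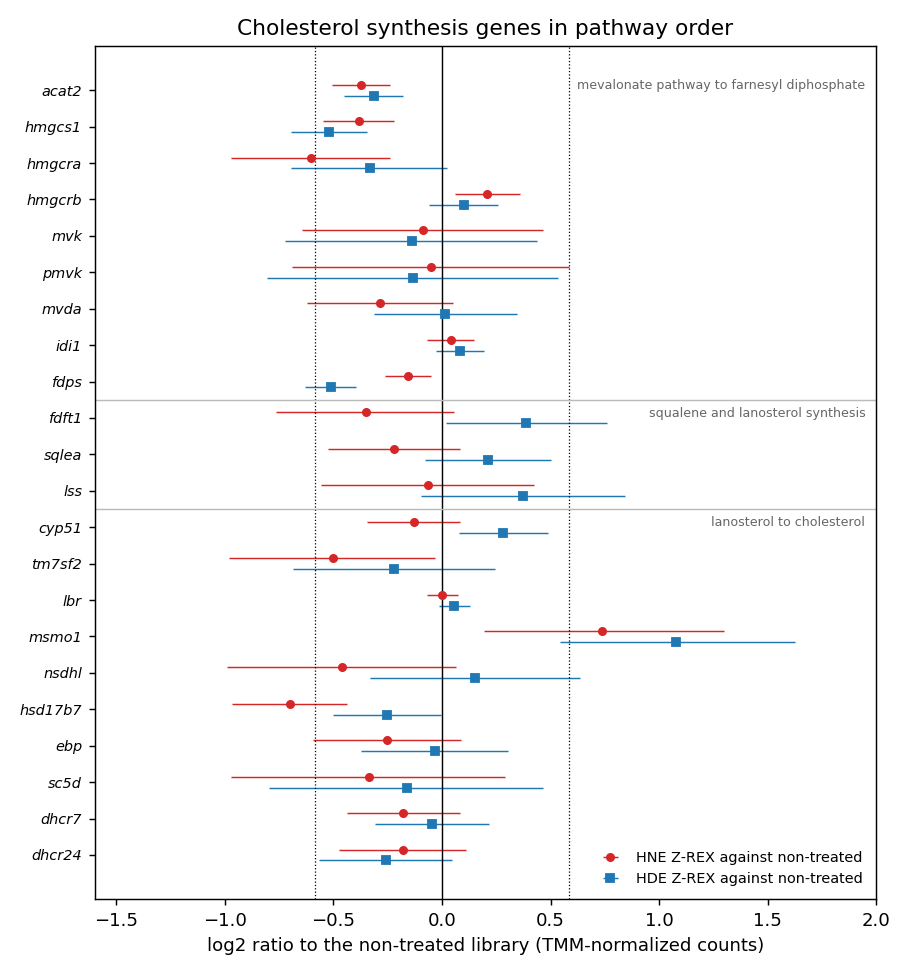
Log2 ratio to the non-treated library of 22 enzyme genes in pathway order, for HNE Z-REX (circles) and HDE Z-REX (squares), with exact 95% counting intervals and dotted lines at 1.5-fold. *msmo1* lies to the right in both libraries, *hmgcra* and *hsd17b7* lie beyond the left line after HNE, and *fdft1*, *sqlea* and *lss* lie left of 0 after HNE and right of it after HDE. Of the intervals of *fdft1*, *sqlea* and *lss*, only that of *fdft1* after HDE leaves out 0.

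Several of the genes have a partner gene of the same family, and the share of a pair's reads within one library does not depend on the scaling between libraries. *hmgcra* took 11.8% (95% interval 9.72% to 14.1%, exact Clopper-Pearson) of the reads of *hmgcra* and *hmgcrb* after HNE, 14.8% (12.3% to 17.5%) after HDE and 18.9% (16.4% to 21.7%) without treatment. *hmgcrb*, which encodes the other HMG-CoA reductase, had 788, 647 and 689 counts, and per length its level was between 4.69 and 7.89 times that of *hmgcra*. Its HNE to non-treated ratio was 1.15 (1.04 to 1.28; adjusted p = 0.0418, exact binomial test), opposite to that of *hmgcra*. The sum of both was 893 counts after HNE against 850 in non-treated embryos, a ratio of 1.06 with an interval of 0.965 to 1.17. With *hmgcra* at 11.8% to 18.9% of the pair's reads, this sum mostly reflects *hmgcrb* and could hardly show a fall of *hmgcra*.

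The LDL receptor reads came almost wholly from *ldlrb*, with 692 counts after HNE, 698 after HDE and 594 without treatment. *ldlra* made up 0.575% (0.157% to 1.46%), 1.69% (0.876% to 2.93%) and 2.30% (1.26% to 3.83%) of the pair. *ldlrb* had ratios to the non-treated library of 1.18 (1.05 to 1.31) after HNE and 1.34 (1.2 to 1.5; adjusted p = 2.88e-06, exact binomial test) after HDE, both under 1.5-fold.

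*insig1* took 50.1% of the reads of *insig1* and *insig2* after HNE, 59.4% (56.2% to 62.4%) after HDE and 50.2% (46.9% to 53.5%) without treatment. *insig2*, whose transcript is known in mammals to depend less on Srebf2, had 450, 404 and 447 counts and a HDE to non-treated ratio of 1.03 (0.899 to 1.18). Within the HDE library *insig1* thus took a larger share than in either of the other libraries, with intervals that do not overlap.

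The partner of *srebf2* was called in both Z-REX libraries, while *srebf2* was not. *srebf1*, which encodes the related factor that mainly drives fatty acid synthesis genes, had 236 counts after HNE and 206 after HDE, against 98 in the non-treated library. It rose 2.43-fold (1.91 to 3.11; adjusted p = 6.87e-13, exact binomial test) after HNE and 2.40-fold (1.88 to 3.08; adjusted p = 7.36e-12, same test) after HDE. Both calls held at a BCV of 0.1 and were lost at 0.2. *srebf2* made up 88.0% of the reads of the pair after HNE and 88.9% after HDE, against 93.9% (92.7% to 95%) without treatment.

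**Figure D4:**
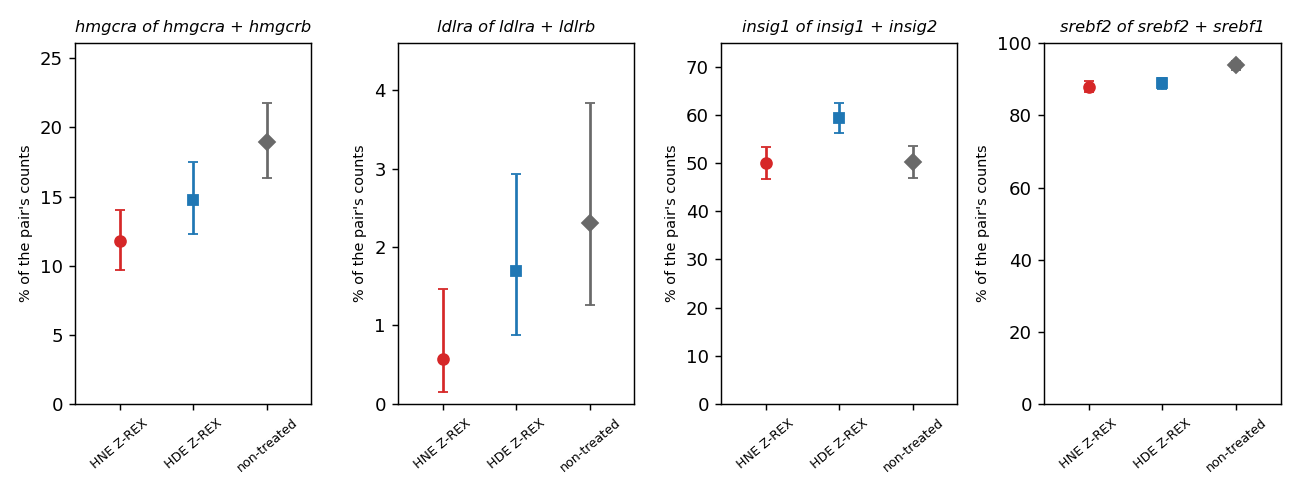
Share of the reads of a gene pair taken by *hmgcra*, *ldlra*, *insig1* and *srebf2* in each library (HNE Z-REX, HDE Z-REX, non-treated), in percent with exact 95% counting intervals; each panel has its own axis starting at 0. The share of *insig1* is 59.4% after HDE, against 50.2% in the non-treated library, and that of *hmgcra* is 11.8% after HNE, against 18.9%.

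The list of other genes for Srebf processing held 9 tested entries. Of these, 2 were called higher after HNE and 1 after HDE, against 1.75% and 2.77% of all genes tested. *srebf1* was 1 of the called entries in both. The other was 1 of 2 entries named *erlin2*, which had fractional counts of divided reads and is uncertain, since the 2 entries together had 322 counts after HNE and 327 without treatment. *mbtps1*, for the first protease that cuts Srebf, had 989, 907 and 978 counts, and *erlin1*, the most abundant of the list, had 2132, 1860 and 2317. Their ratios to the non-treated library lay between 0.916 and 1.06.

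Among 13 tested genes of lipoprotein receptors and cholesterol transport, 1 was called higher after HNE and 1 after HDE. The shares of all genes tested called higher were 1.75% after HNE and 2.77% after HDE. *mylipb* (ENSDARG00000055118), 1 of 2 genes for the ubiquitin ligase that in mammals degrades the LDL receptor, rose to 156 counts after HNE, against 63 in the non-treated library, and had 51 after HDE. Its HNE to non-treated ratio was 2.50 (1.85 to 3.41) and its HNE to HDE ratio 2.71 (1.96 to 3.79; adjusted p = 1.69e-09, exact binomial test), and both calls held at a BCV of 0.1. *mylipa* had 251 counts in each Z-REX library and 189 without treatment, and was called after HDE at 1.52-fold, a call that was lost at a BCV of 0.1. The most abundant genes of this list were *npc2* and *npc1*, whose proteins move cholesterol out of the lysosome, with 4307 and 2600 counts after HNE, 3401 and 1980 after HDE, and 4888 and 2469 without treatment.

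In the list of sterol efflux and storage, 4 of 10 tested genes were called higher after HDE and 1 after HNE, and none was called lower in either. Of all genes tested, 2.77% were called higher after HDE and 1.75% after HNE. *abca1a* (ENSDARG00000074635), for a transporter that exports cholesterol, had 889 counts after HDE and 720 after HNE, against 486 in the non-treated library, and rose 2.09-fold (1.87 to 2.34; adjusted p = 1.36e-38, exact binomial test) after HDE. After HNE its log2 ratio was 0.58, just under the limit of 1.5-fold. *soat2*, for a cholesterol esterifying enzyme, rose in both, 1.8-fold after HNE and 1.93-fold after HDE, with 205 and 195 counts against 115. *soat1*, with 85 counts after HDE and 58 without treatment, and *lcat*, which esterifies cholesterol in plasma, with 140 and 93 counts, were called after HDE only, and *lcat* was also lower after HNE than after HDE (ratio 0.651). The gene of the list with the highest mean count, *abca1b*, had 2823 counts after HNE, 2414 after HDE and 2927 without treatment. Only the *abca1a* call held at a BCV of 0.1.

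Of 15 fatty acid synthesis genes, targets of Srebf1 in mammals, none was called after HNE and 2 were called higher after HDE. Over all genes tested, 3.36% were called in either direction after HNE and 2.77% higher after HDE. *fads2*, for a fatty acid desaturase, had 97 counts after HNE, 144 after HDE and 104 without treatment, and was called at 1.58-fold after HDE and at a ratio of 0.596 between HNE and HDE, and both calls were lost at a BCV of 0.1. *scd*, for another desaturase, had 12, 20 and 7 counts, and its HDE call was lost without the filter on low counts and at a BCV of 0.1. Its average of 13 counts passed the filter only through the HDE library, the one in which it was called higher. Without the fold limit 2 of the 15 passed an adjusted p of 0.05 (exact binomial test) after HNE, against 14.7% of all genes. These were *elovl5* and *elovl6*, lower with ratios of 0.756 and 0.711. After HDE 4 passed, against 21.1% of all genes, with *fads2*, *scd* and *acaca* (1.23) higher and *elovl6* (0.741) lower. The most abundant genes, *aclya* (2243, 1919 and 2289 counts) and *acss2* (1706, 1385 and 1576 counts), which supply acetyl-CoA, had log2 ratios between -0.064 and 0.13 to the non-treated library. Of 12 genes of the isoprenoid branches, which use the products of *fdps*, 1 was called lower after HDE, against 1.49% of all genes tested. This was *pdss2* of ubiquinone synthesis, with 166 counts after HDE against 293 without treatment. Its ratio of 0.646 lost its call with total counts and at a BCV of 0.1. The highest mean counts of these genes, not corrected for length, were those of *fnta* and *nus1*. *fnta*, a subunit of farnesyltransferase, had 897 counts after HNE, 702 after HDE and 990 without treatment. *nus1*, a subunit of the enzyme that makes the dolichol precursor, had 693, 518 and 722. In steroid hormone synthesis 1 of 9 tested genes was called higher after HNE, against 1.75% of all genes tested. This was *cyp21a2*, with 26 counts after HNE, 11 after HDE and 8 without treatment, and its call was lost at a BCV of 0.1. Its average of 15 counts passed the filter only through the HNE library, the one in which it was called higher. The most abundant were *cyp17a1* (411, 392 and 478 counts) and *star* (109, 81 and 127 counts).

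Markers of other kinds moved between the libraries beside these genes. Of 13 tested genes of yolk syncytial layer and liver lipoproteins, 6 were called lower after HNE and 5 after HDE, against 1.62% and 1.49% of all genes tested. Without the fold limit 12 and 13 passed an adjusted p of 0.05, against 7.46% and 11.1% of all genes lower, and all 13 had log2 ratios below 0 in both. The genes called were *apobb.2*, *apoea*, *apoa4b.1*, *apoa4b.2* and *apoa4b.3* in both libraries and *apoeb* after HNE. The summed FPKM of the whole list, called or not, was 12956 after HNE, 11818 after HDE and 16323 without treatment. *ttr* and *fabp10a*, the other 2 genes of this list found in the tables, were at or near 0 in every library. *apoea*, for an apolipoprotein E, had 2106 counts after HNE and 1958 after HDE, against 4753 in the non-treated library. Of the light-responsive genes, *cry5*, *per2* and *tefa*, 3 of 3 tested, were called higher in both Z-REX libraries. Over all genes tested, 1.75% were called higher after HNE and 2.77% after HDE. The HNE library held 1245 *per2* counts and the HDE library 736, against 200 in the non-treated library. The 3 light-responsive genes also differed between the 2 Z-REX libraries. Set directly against the HDE library, the HNE library stood at 1.40-fold for *cry5*, 1.497-fold for *per2* and 1.29-fold for *tefa*. All 3 had an adjusted p under 0.05 (exact binomial test), against 9.22% of all genes higher. Each fell short of 1.5-fold and none was called. Of 4 neutrophil and 4 macrophage genes, 3 and 2 were called lower after HNE, against 1.62% of all genes tested. After HDE 1 neutrophil gene was called higher, against 2.77% of all genes tested. The summed FPKM of the neutrophil and macrophage genes was 57.1 and 4.55 after HNE, 98.9 and 10.4 after HDE, and 105.7 and 13.2 without treatment. All 5 erythroid entries were below 0 in both Z-REX libraries. Of these, 2 were called lower after HNE and 1 after HDE, against 1.62% and 1.49% of all genes tested. Every erythroid call was on 1 of 2 entries named *hbbe1.1*, which had fractional counts of divided reads and are uncertain. *hbae3*, *hbbe3* and *alas2* were not called. The summed FPKM of the erythroid entries was 3706 after HNE, 3872 after HDE and 5532 without treatment. All 4 lens genes were below 0 in both, with 1, *crygm2d1*, called lower after HNE, against 1.62% of all genes tested. Of 5 hatching gland entries 1 was called lower in both, against 1.62% and 1.49% of all genes tested. This was *he2*, with 34 counts after HNE and 20 after HDE against 100. The other hatching gland entries, all more abundant, had ratios to the non-treated library between 0.861 and 1.01. Of 4 muscle genes 1 was called, *acta1b*, which was lower after HDE with a ratio of 0.610, against 1.49% of all genes tested. All 4 muscle genes were below 0 in both Z-REX libraries at an adjusted p under 0.05 (exact binomial test). The shares of all genes lower at that limit were 7.46% after HNE and 11.1% after HDE. At such high counts small differences pass, as for *mylpfa* after HNE, with 74985 against 78980 counts and a ratio of 0.959. None of 4 neural genes was called. The part of these differences in the values of the 10 genes was not tested, and the effects of light, precursor and electrophile cannot be told apart between a Z-REX library and the non-treated one.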

How the data were processed

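Polyadenylated RNA from whole zebrafish embryos was sequenced as single-end reads of 81 nt, with 1 directional library per condition. The authors trimmed reads with cutadapt 1.8, mapped them to GRCz10 with TopHat2 2.1 and computed FPKM with Cufflinks 2.2 (Cuffnorm). The deposited table of estimated counts holds fractional values for 913 of 31950 genes, none of them among the 10 genes described, and all were rounded to whole numbers. The counting tool and its use of strand are not given in the sources used here.

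Library sizes were scaled by TMM (edgeR 4.0.16, R 4.3.3) over the 18563 genes averaging 10 counts or more, and genes were tested by an exact two-sided binomial test (scipy 1.17.1) with Benjamini-Hochberg adjustment. The test was checked on simulated data, with a set standard only for data without replicate spread. Data with a replicate spread, at a BCV of 0.2, were simulated too, but without a standard to meet. The check therefore gives no assurance for spread between replicates. Alternatives were size factors of DESeq2 1.42.0, upper-quartile factors, total counts, total counts after the 20 most abundant genes were removed, no filter, an average of 50 counts or more, a 2-fold or no fold threshold, edgeR's exact test at a biological coefficient of variation (BCV) of 0.1, 0.2 or 0.4, a pseudocount of 1 on counts, and FPKM with a pseudocount of 0.1 or 1. FPKM served for levels and as an alternative only.

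The 10 genes and all gene lists were chosen with earlier results of these data known. Of every other pathway list, the genes named are those past the call rule in a comparison and the 2 with the highest mean count. The marker lists are summarised by counts, and the genes named from them were picked after their values were seen. The partner genes *hmgcrb*, *ldlrb* and *insig2*, and *acat2*, *tm7sf2*, *ebp*, *nsdhl*, *elovl5*, *elovl6*, *acaca*, *ttr* and *fabp10a*, were named after their values were seen. Sequences and promoter motifs were not analysed here.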

Additional observations from a re-analysis of the deposited data

How the results depend on the processing

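No paired analysis was possible because each condition has 1 library and the labels give no replicate numbers. For the same reason no library could be left out. In the HNE to non-treated comparison 1 of the 10 genes was called, against 0 with a 2-fold threshold, 4 with no fold threshold and 0, 0 and 0 with edgeR's exact test at a biological coefficient of variation of 0.1, 0.2 and 0.4. Of the 15 other enzyme genes 2 were called, against 1 without the filter on low counts, where *msmo1* was lost (adjusted p = 0.0765, exact binomial test), 0 with a 2-fold threshold, 4 with no fold threshold and 0 at each coefficient of variation. In the HDE to non-treated comparison 0 of the 10 genes were called, against 1 with total counts, 1 with total counts without the 20 most abundant genes and 5 with no fold threshold, and of the enzyme genes 1 was called, against 2 with no fold threshold and 0 at each coefficient of variation. Between HNE and HDE 0 of the 10 genes were called, against 1 with total counts, 1 without the 20 most abundant genes and 4 with no fold threshold, and of the enzyme genes 1, against 0 with a 2-fold threshold, 2 with no fold threshold and 0 at each coefficient of variation. The gene gained with both total count scalings was *insig1*. Total counts moved the median log2 ratio of all genes tested to 0.072 between HDE and non-treated and to -0.055 between HNE and HDE. With them the HDE to non-treated log2 ratios of *ldlra* and *dhcr7* changed sign, to 0.032 and 0.019 with total counts and to 0.026 and 0.012 without the 20 most abundant genes, and neither was called under any setting. The median log2 ratio of the 10 genes ran from -0.17 to -0.13 for HNE to non-treated, from 0.080 to 0.21 for HDE to non-treated and from -0.40 to -0.17 for HNE to HDE over 9 alternatives. Pseudocounts and FPKM give no test and so no count of calls. Depth limits *ldlra* most, with 4 to 14 reads.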
